A study of Mus musculus with 44 samples.

Results

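The comparison described here is that of Kdm5bΔARID/ΔARID mutants (Kdm5bDARID/DARID) with wild-type (WT) mice, 3 h after contextual fear conditioning. All libraries labelled with that time and either genotype were taken, which gave 12 libraries, 6 per genotype, of 36 with counts. Each library was made from the dorsal hippocampus of 1 mouse, and each genotype had 3 mice labelled male and 3 labelled female. Mice were young adult littermates from intercrosses of a mixed C57BL/6J and 129S2/Sv background, and every mouse compared had received the same foot shocks in the conditioning chamber. The ΔARID allele lacks internal exons of Kdm5b in all cells of the animal from conception, so the mutants are not a model of an acute loss in neurons. Naive mice (0 h) and mice killed 1 h after training, 6 per genotype at each time, were different animals and are used below only to set the 3 h values beside them.

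Kdm5b encodes a lysine demethylase that removes methyl groups from lysine 4 of histone H3 (H3K4), a mark of active promoters, and its variants are linked to intellectual disability and autism. The ARID domain binds DNA, and the ΔARID protein lacks it together with part of the JmjN domain that the catalytic JmjC domain needs. Removal of H3K4 methylation is associated with repression, and KDM5 proteins also work with corepressor complexes. Hippocampal neurons answer a training session with a wave of immediate early genes, which are largely transcription factors, and then with later effector genes that act at synapses. Bulk tissue was sequenced, so fewer cells of a type and less RNA per cell cannot be told apart in any value below.

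Library totals ranged from 70992683 to 107000233 assigned counts in WT and from 56774704 to 69167677 in mutants. Every WT library was deeper than every mutant library (difference of means, mutant minus WT, -23386289; exact permutation test, two-sided, p = 0.00216, n = 6 and 6). Depth and genotype cannot be told apart at this time, and thinning all libraries to the smallest total left 1 gene called. The library labelled mutant female 2 carried 36 Xist counts and 10239 counts over 4 Y-linked genes, the pattern of the libraries labelled male, and it had the smallest sample weight in a limma voom fit (0.456; the other 11 libraries had 0.821 to 1.44). At 1 h the library labelled WT male 1 had the opposite mismatch, with 51186 Xist counts and 0 over the same Y-linked genes. Fos, an immediate early gene that training induces, was at 43.9 CPM in mutant female 2 against 4.85 to 17.2 CPM in the other 3 h libraries, and at 11.7 CPM in WT male 1 against 19.1 to 34.5 CPM in the other 1 h libraries. Of the 30 genes with the smallest genotype p at 3 h, WT male 1 was nearer to the mutant mean than to the mean of the other WT libraries of its time for 28, and mutant female 2 was nearer to the WT mean for 13. The 30 were chosen with mutant female 2 counted as a mutant, which favours the mutant side for it. WT male 1 took no part in that choice, so the 2 counts are not comparable. Whether the 2 libraries were exchanged, which would change the genotype and the time of both, cannot be told from the labels, and any value that uses either has this limit. Mutant female 2 is kept under its label, and a log2 difference that leaving it out moved by over 1.5 times is also given without it, unless it was under 0.15 in size in both fits. Levels are in CPM (counts scaled to a common library size) scaled by TMM factors; they are not per length and are compared here only within a gene.

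Genotype moved few genes past the threshold at 3 h. Of 17394 genes tested by edgeR's quasi-likelihood test with sex as a covariate, 2 had a Benjamini-Hochberg adjusted p under 0.05, both higher in mutants (0.0115% of the genes tested), and none was lower. An unadjusted p under 0.05 was found for 1107 genes (6.36%), 570 higher (3.28%) and the rest lower (3.09%) in mutants, and the median log2 difference over all genes was 0.00. DESeq2 with the same covariate called 51 genes (0.288%), 43 higher and 8 lower. Without mutant female 2, edgeR called 18 genes (0.103%), 17 higher and 1 lower, and 13 of them were among the 30 genes with the smallest p in the fit of all 12 libraries.

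**Figure D1:**
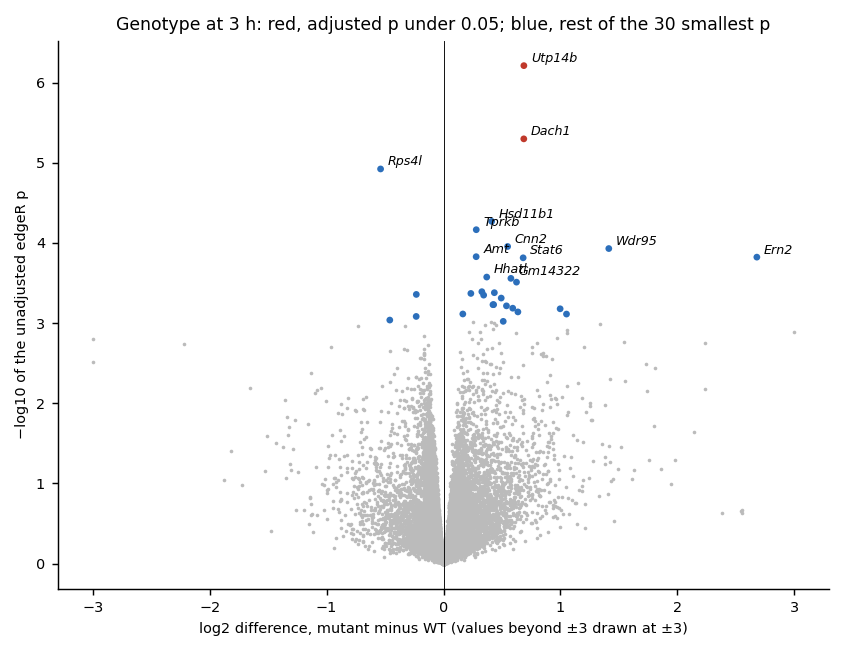
Each point is 1 of the 17394 genes tested at 3 h, with the log2 difference (mutant minus WT) on the x axis and the −log10 unadjusted edgeR p on the y axis. The 2 genes with an adjusted p under 0.05, Utp14b and Dach1, stand above the rest on the side of higher levels in mutants.

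Kdm5b itself, measured over the whole gene, was at 86.5-92 CPM in WT libraries (median 88.6) and 77.4-93.5 CPM in mutant libraries (median 83.5). The groups overlapped only through mutant female 2, at 93.5 CPM the highest of all libraries. The other mutant libraries, at 77.4 to 86.1 CPM, lay below all WT libraries. With mutant female 2 kept, the log2 difference was -0.08 ± 0.04 (SE, edgeR adjusted p = 0.789). Because the counts are summed over all exons, including those that the allele keeps, the gene's total does not check the genotype labels. Among its paralogues, Kdm5a had a log2 difference of 0.00 ± 0.05 and the X-linked Kdm5c one of -0.11 ± 0.06, neither past the threshold (edgeR adjusted p = 0.998 and 0.817). Of 9 H3K4 demethylase genes tested, 0 had an unadjusted p under 0.05 (against 6.36% of all genes; median log2 difference 0.01), and 1 had one without mutant female 2, where the share of all genes was 8.06%. Among 21 genes for the opposing H3K4 methyltransferases and their COMPASS subunits, Kmt2c differed by 0.11 and Ash2l by -0.09, the 2 members with an unadjusted p under 0.05 (9.52%, against 6.36% of all genes) and with edgeR adjusted p of 0.766 and 0.775. Among 25 genes of the Sin3 and NuRD corepressors, Hdac1 was at 0.42 and Mbd3 at -0.17 on the log2 scale (edgeR adjusted p = 0.733 and 0.682), and 8% of the group had an unadjusted p under 0.05, or 16% without mutant female 2.

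Utp14b rose in mutants. It encodes a component of the small subunit processome, which trims ribosomal RNA precursors, and lies on chromosome 1 at chr1:78657825-78667601 of GRCm38, inside the gene Acsl3. Its level was 5.27-6.5 CPM in WT libraries (median 5.94) and 8.69-10.4 CPM in mutant libraries (median 9.41). All 6 mutant libraries lay above all 6 WT libraries. The means were 5.89 ± 0.475 CPM in WT and 9.48 ± 0.712 CPM in mutants (SD, n = 6 each), a log2 difference of 0.69 ± 0.08 (SE; edgeR adjusted p = 0.0107). The difference was 0.64 in males and 0.74 in females as labelled. Acsl3, the fatty acid activating enzyme whose gene surrounds it, was at 171-202 CPM in WT libraries (median 185) and 172-204 CPM in mutant libraries (median 192), with a log2 difference of 0.04 ± 0.05 (edgeR adjusted p = 0.923). Whether strand was used in counting is not given in the sources used here, so reads of the overlapping genes may be shared or dropped. Leaving out 1 library at a time gave adjusted p values between 0.0165 and 0.0607, above 0.05 without WT male 3, WT female 1, WT female 2, mutant male 2 or mutant male 3.

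Dach1 rose by as much. It encodes a nuclear cofactor that works with SIX-family and EYA proteins in the retinal determination network, a set of developmental regulators first known from the eye, and spans chr14:97786846-98169765. Its level was 5.64-6.94 CPM in WT libraries (median 6.59) and 8.59-12.3 CPM in mutant libraries (median 10.6). Again no mutant library reached down to a WT library. The means were 6.54 ± 0.474 CPM in WT and 10.5 ± 1.32 CPM in mutants (SD, n = 6 each), a log2 difference of 0.69 ± 0.09 (SE; edgeR adjusted p = 0.0437). In mutant female 2 Utp14b was at 8.69 CPM and Dach1 at 9.77 CPM, above every WT library at 3 h in each case, and both lay within the range of the other WT libraries at 1 h (6.52 to 9.83 and 6.05 to 10.2 CPM, scaled apart from the 3 h libraries). Leaving out 1 library at a time gave adjusted p values for Dach1 between 0.0201 and 0.235, under 0.05 only without mutant female 1 or mutant female 2. Over all genes, all 6 mutant libraries lay above all 6 WT libraries for 30 genes (0.172%) and below them for 31 (0.178%).

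The promoters of both genes are shown because H3K4 methylation, the substrate of KDM5B, is found mainly at promoters rich in CG dinucleotides. The windows are RefSeq promoters on GRCm38.p6, 300 bases long, for Utp14b at chr1:78658190-78658489 (plus strand) and for Dach1 at chr14:98169716-98170015 (minus strand). RefSeq gives Utp14b more than 1 transcript, and its window lies around a start inside the span given above, whose outer start is shared with Acsl3. Capitals mark each CG, a motif that reads the same on both strands.
Utp14b: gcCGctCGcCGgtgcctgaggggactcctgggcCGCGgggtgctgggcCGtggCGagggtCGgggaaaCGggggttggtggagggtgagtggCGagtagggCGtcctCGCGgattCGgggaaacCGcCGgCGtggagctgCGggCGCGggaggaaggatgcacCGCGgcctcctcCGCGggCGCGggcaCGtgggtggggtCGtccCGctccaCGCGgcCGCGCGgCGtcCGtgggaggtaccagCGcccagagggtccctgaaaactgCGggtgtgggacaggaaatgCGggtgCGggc
Dach1: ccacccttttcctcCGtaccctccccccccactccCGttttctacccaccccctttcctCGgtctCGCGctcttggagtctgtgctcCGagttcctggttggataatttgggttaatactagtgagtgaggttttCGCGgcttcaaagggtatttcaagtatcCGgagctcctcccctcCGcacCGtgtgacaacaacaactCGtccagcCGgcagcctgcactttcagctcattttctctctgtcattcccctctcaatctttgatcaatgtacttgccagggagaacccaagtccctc
The Utp14b window held 40 CG, and as many or more were found in 3.91% of 32851 mouse promoter windows of this length. The window at the outer start, listed for Acsl3, held 33 (8.56% of windows held as many or more). The Dach1 window held 13, a number reached by 37.9% of windows (median 7). The window of Hsd11b1, the gene described next among those higher in mutants, held 6. No chromatin data were used here, and the counts of CG are a description of the sequence only.

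The 30 genes with the smallest p comprised 26 higher and 4 lower in mutants, with log2 differences of 0.16 to 2.68 in size. Apart from Utp14b and Dach1, none had an adjusted p under 0.05 by edgeR, where values reached 0.503, and the following levels are given as measured. The groups did not overlap for 14 of the 26 and 2 of the 4, a count that the choice by p favours.

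**Figure D2:**
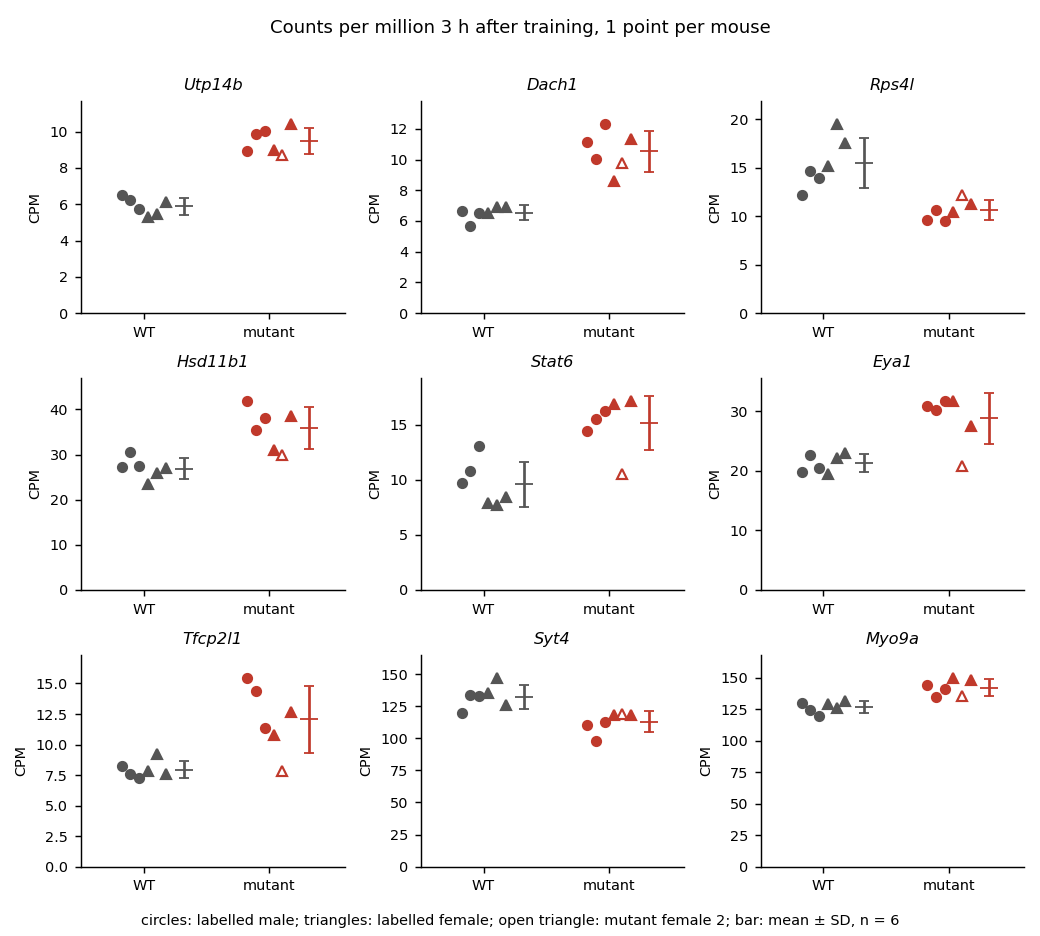
CPM of 9 genes in the 12 libraries at 3 h, from 0 on the y axis, with WT on the left and mutants on the right of each panel and the mean ± SD beside the points. The open triangle is mutant female 2, which lies with the mutants for Utp14b and Dach1 and with WT for Eya1 and Tfcp2l1.

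Several of the 30 encode enzymes. Hsd11b1, which regenerates active glucocorticoid inside cells, was at 23.5-30.5 CPM in WT libraries (median 27.1) and 29.9-41.9 CPM in mutant libraries (median 36.8). Only mutant female 2 (29.9 CPM) overlapped the WT range, and the log2 difference was 0.41 ± 0.07 (edgeR adjusted p = 0.234, 0.0327 without that library). Amt, of the mitochondrial glycine cleavage system, was at 17.8-19.7 CPM in WT libraries (median 18.3) and 20.2-23.8 CPM in mutant libraries (median 22.9), a log2 difference of 0.28 ± 0.05. Tprkb, a subunit of the KEOPS complex that modifies transfer RNA, was at 57.8-66.8 CPM in WT libraries (median 60.4) and 69-78.7 CPM in mutant libraries (median 74.8) and differed by 0.28 ± 0.05. For Amt and Tprkb the groups were fully apart. Pign, an enzyme of GPI anchor synthesis, and Ggta1, which adds terminal galactose to glycans, had log2 differences of 0.34 ± 0.07 and 0.54 ± 0.12.

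Transcription factors formed another part of the 30. Stat6, which acts downstream of interleukin 4 receptors, was at 7.7-13 CPM in WT libraries (median 9.05) and 10.6-17.2 CPM in mutant libraries (median 15.9). The other 5 mutant libraries lay above all WT libraries, while mutant female 2, at 10.6 CPM, lay within the WT range. The log2 difference was 0.68 ± 0.13 with all libraries (edgeR adjusted p = 0.266) and 0.75 without mutant female 2 (adjusted p = 0.0327). Eya1, a phosphatase and transcriptional coactivator of the retinal determination network, showed the same layout, at 19.5-22.9 CPM in WT libraries (median 21.3) and 20.8-31.8 CPM in mutant libraries (median 30.6), with mutant female 2 lowest. Its adjusted p went from 0.432 to 0.0165 by edgeR when that library was left out. Tfcp2l1, a factor known from pluripotent and kidney cells, had a log2 difference of 0.59 ± 0.13 (0.70 without mutant female 2). Zfp970, a zinc finger gene on chromosome 2, was at 18.5-34.1 CPM in WT libraries (median 24.5) and 34.2-43.9 CPM in mutant libraries (median 41.6), with groups apart. It belongs to a cluster of near-identical genes, and the values of Zfp970 and of the predicted genes Gm14322 (0.58) and Gm14403 (1.00) on the same chromosome are uncertain for that reason.

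The remaining genes with higher levels in mutants included cell surface and cytoskeletal genes. Rgma, a repulsive guidance cue, was at 39.7-44.8 CPM in WT libraries (median 42.4) and 46.1-54.6 CPM in mutant libraries (median 48.6), and Myo9a, an unconventional myosin, at 119-132 CPM in WT libraries (median 128) and 134-150.2 CPM in mutant libraries (median 143). These were small differences, 0.23 ± 0.05 and 0.16 ± 0.04 on the log2 scale, at well expressed genes whose groups did not overlap. Cnn2, an actin-binding calponin, differed by 0.55 ± 0.10, Fzd5, a Wnt receptor, by 0.43 ± 0.10, and Plch1, a phospholipase C, by 0.51 ± 0.12. Ern2, an endoplasmic reticulum stress sensor of epithelia, had the greatest difference of the 30 (2.68 ± 0.51) at levels of only 0.0111-0.129 CPM in WT libraries (median 0.084) and 0.171-0.674 CPM in mutant libraries (median 0.525). Pcdhga2, of the protocadherin cluster whose genes share 3′ exons and so share reads, was at 0.62 and its value is uncertain. Wdr95, Hhatl, Smc4, Pstpip2, Myl6b and Ddx60 had log2 differences of 1.41, 0.37, 0.33, 0.49, 0.42 and 1.05.

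Lower levels in mutants were fewer among the 30. Rps4l, a ribosomal protein gene near-identical to other S4 copies, was at 12.2-19.5 CPM in WT libraries (median 15) and 9.55-12.2 CPM in mutant libraries (median 10.5), with a log2 difference of -0.54 ± 0.08 (edgeR adjusted p = 0.0691, and 0.0327 without mutant female 2). Syt4, a synaptotagmin of dense core vesicles, was at 119.6-147 CPM in WT libraries (median 133) and 97.5-119 CPM in mutant libraries (median 116) and differed by -0.23 ± 0.05. No mutant library overlapped WT for either. Nectin1, a synaptic adhesion molecule, was at -0.23 and Pcdhb9, a clustered protocadherin, at -0.46, with 1 or more libraries overlapping.

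Where mutant female 2 lay differed between genes. Of the 30, it was nearer to the WT mean than to the mean of the other mutants, on the log2(CPM + 0.5) scale, for 13, while each of the other mutant libraries was nearer to WT for 1 or 2. Genes called without it and not among the 30 were D2hgdh (0.92), Tnxb (0.82), Pcdhga3 (0.49), Pcdhb8 (1.54) and Tbrg1 (0.25), a list named after its values were seen. Tnxb, an extracellular matrix gene, was at 15.9 CPM in mutant female 2 against 26.1 to 43.2 CPM in the other mutants and 16.4 to 24.6 CPM in WT.

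Naive mice and mice 1 h after training offered the same contrast in other animals. At 0 h edgeR called 0 of 17336 genes (0%; 1066, or 6.15%, had an unadjusted p under 0.05, and DESeq2 called 16), and at 1 h 0 of 17261 (0%; 1487, or 8.61%, had an unadjusted p under 0.05, and DESeq2 called 100). Without WT male 1, whose counts contradict its sex label, edgeR called 41 genes at 1 h (0.236%). Of the 30 genes, 29 had the same direction at 0 h and 28 at 1 h, against 65.5% and 56.4% of all genes tested at both times. With an unadjusted p under 0.05 as well, the counts were 13 at 0 h and 17 at 1 h, against 5.44% and 5.98% of all genes. Without WT male 1 the count at 1 h was 23, against 7.62% of all genes, and 8 of the 30 were called at 1 h (Eya1, Cnn2, Wdr95, Stat6, Pcdhga2, Myl6b, Gm14403 and Utp14b). With all libraries, the direction and an unadjusted p under 0.05 held for 9 of the 30 at both times, namely Utp14b, Dach1, Hsd11b1, Tprkb, Cnn2, Wdr95, Stat6, Eya1 and Pign. Utp14b differed by 0.51 ± 0.16 at 0 h and 0.63 ± 0.11 at 1 h, and Dach1 by 0.52 ± 0.18 and 0.49 ± 0.12. At 1 h all 6 mutant libraries again lay above all WT libraries for Utp14b. Ddx60, an interferon-induced helicase, went the other way at 1 h (-0.74 ± 0.29).

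**Figure D3:**
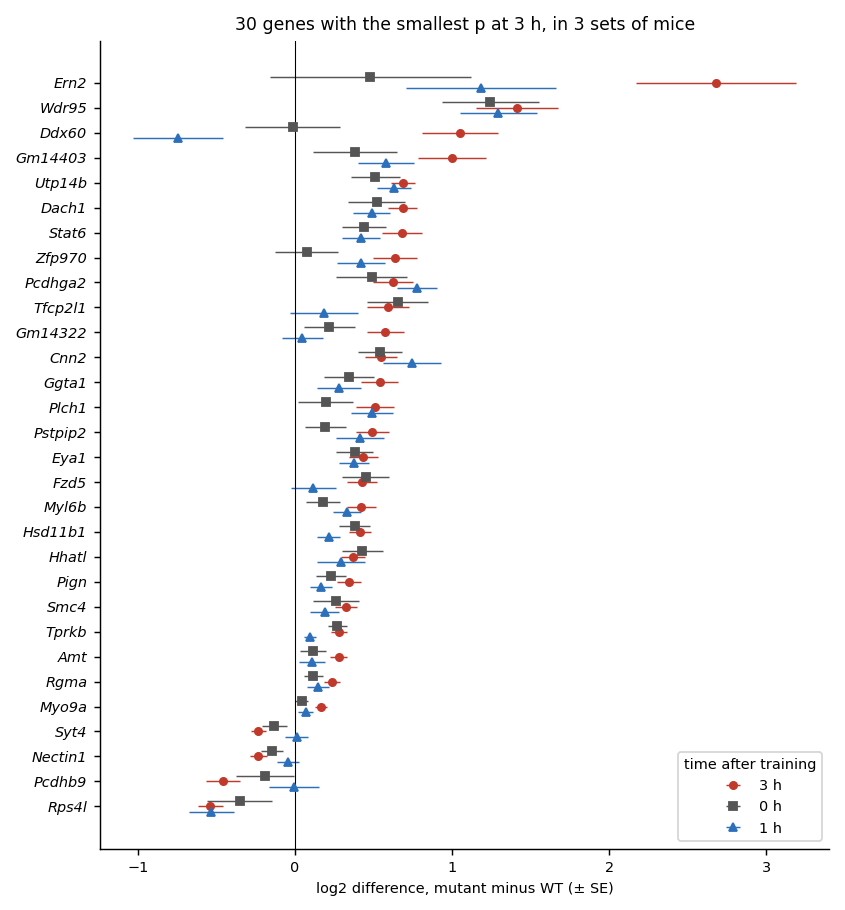
Log2 difference (mutant minus WT, ± SE) on the x axis for the 30 genes with the smallest p at 3 h, with separate mice at 3 h, 0 h and 1 h. Most genes lie on the same side of 0 at the 3 times, and Ddx60 does not.

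The difference between times was tested directly. For genotype by time, edgeR called 0 of 17926 genes between 3 h and 0 h (0%) and 0 of 17911 between 3 h and 1 h (0%), DESeq2 also 0 in each, with 273 (1.52%) and 801 (4.47%) genes at an unadjusted p under 0.05. Leaving out both mutant female 2 at 3 h and WT male 1 at 1 h, a choice made after seeing the data, gave 0 of 18000 between 3 h and 1 h by edgeR (0%; 668, or 3.71%, at an unadjusted p under 0.05). Utp14b had an interaction of 0.16 ± 0.18 against 0 h and 0.05 ± 0.14 against 1 h, and Dach1 0.16 ± 0.21 and 0.20 ± 0.16 (log2, SE). Ddx60 had the smallest unadjusted p of the 30 against 1 h (6.67e-05; edgeR adjusted p = 0.995). Genotype by sex at 3 h gave 0 called genes of 17394 by edgeR (0%) and 6 by DESeq2, with 874 (5.02%) at an unadjusted p under 0.05. Tprkb and Cnn2 were the only genes of the 30 with an unadjusted p under 0.05 for it. Sex is as labelled, mutant female 2 included.

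Immediate early genes were examined next, because they carry the response to training. Of 23 immediate early transcription factors tested, 0 were called, 17 had higher values in mutants (against 50.2% of all genes) and the median log2 difference was 0.13, against 0.00 over all genes. Without mutant female 2, 12 had higher values and that median was 0.01. Fos was at 4.85-17.2 CPM in WT libraries (median 10.5) and 6.41-43.9 CPM in mutant libraries (median 9.47), where the highest value belonged to mutant female 2 and the next mutant was at 11.6 CPM. The log2 difference of Fos was 0.38 ± 0.50 with it and -0.22 without it. Arc, a postsynaptic effector, was at 88.1-166 CPM in WT libraries (median 111) and 73-332 CPM in mutant libraries (median 93.1), and mutant female 2 was again highest. Its log2 difference was 0.07 ± 0.35 with that library and -0.35 without. Egr1, Egr2, Egr3, Npas4, Nr4a1, Nr4a2 and Bdnf had log2 differences of 0.23, 0.84, -0.03, 0.11, 0.13, 0.13 and -0.00, none past the threshold. Without mutant female 2, which had the highest Egr1 and Egr2 of the mutants, the differences were 0.01 for Egr1 and 0.01 for Egr2. Egr2 was at 19.9 CPM in it and at 1.27 to 4.46 CPM in the other mutants. Fosb, whose stable product accumulates with repeated activity, was at 9.45-18.2 CPM in WT libraries (median 13.6) and 13.4-31.4 CPM in mutant libraries (median 17.1) (unadjusted p = 0.0523), a log2 difference of 0.46 ± 0.21 that was 0.29 without mutant female 2. Atf3, a stress-induced factor, had a log2 difference of 0.66 ± 0.28 (0.41 without that library) and Jund one of -0.12 ± 0.05. Of 30 effector genes, 0 had an unadjusted p under 0.05 (against 6.36% of all genes; median 0.05).

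The retinal determination network had the highest median of 21 gene groups. Of 11 members tested, 10 had higher values in mutants, 1 was called (Dach1) and 4 had an unadjusted p under 0.05, Dach1, Eya1, Dach2 and Eya4. Without mutant female 2, 7 had higher values and 4 such a p. With all libraries the shares were 90.9% and 36.4%, against 50.2% higher and 6.36% at that p over all genes. The median log2 difference was 0.28, 0.12 without mutant female 2, 0.13 at 0 h and -0.00 at 1 h. The list was drawn up with Dach1 and Eya1 known, so its count is a description. Dach2, a paralogue on the X chromosome, was at 0.717-1.38 CPM in WT libraries (median 1.07) and 1.05-2.08 CPM in mutant libraries (median 1.77). In the STAT and JAK family 2 of 16 genes had an unadjusted p under 0.05 (12.5%, against 6.36% of all genes), Stat6 and Stat4, the latter at 0.0748-0.634 CPM in WT libraries (median 0.198) and 0.137-1.22 CPM in mutant libraries (median 0.777) with 0 edgeR calls in the family. Among 24 genes of neurogenesis, 13 had higher and 11 lower values (median 0.04), 0 were called and 4 had an unadjusted p under 0.05 (16.7%, against 6.36% of all genes). Without mutant female 2 the latter count was 2 (8.33%, against 8.06%). With all libraries, Id4, an inhibitor of neuronal differentiation, was at 0.45 ± 0.12, Mki67, of dividing cells, at 0.36 ± 0.14, and Neurod1, a proneural factor, at -0.25 ± 0.08.

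**Figure D4:**
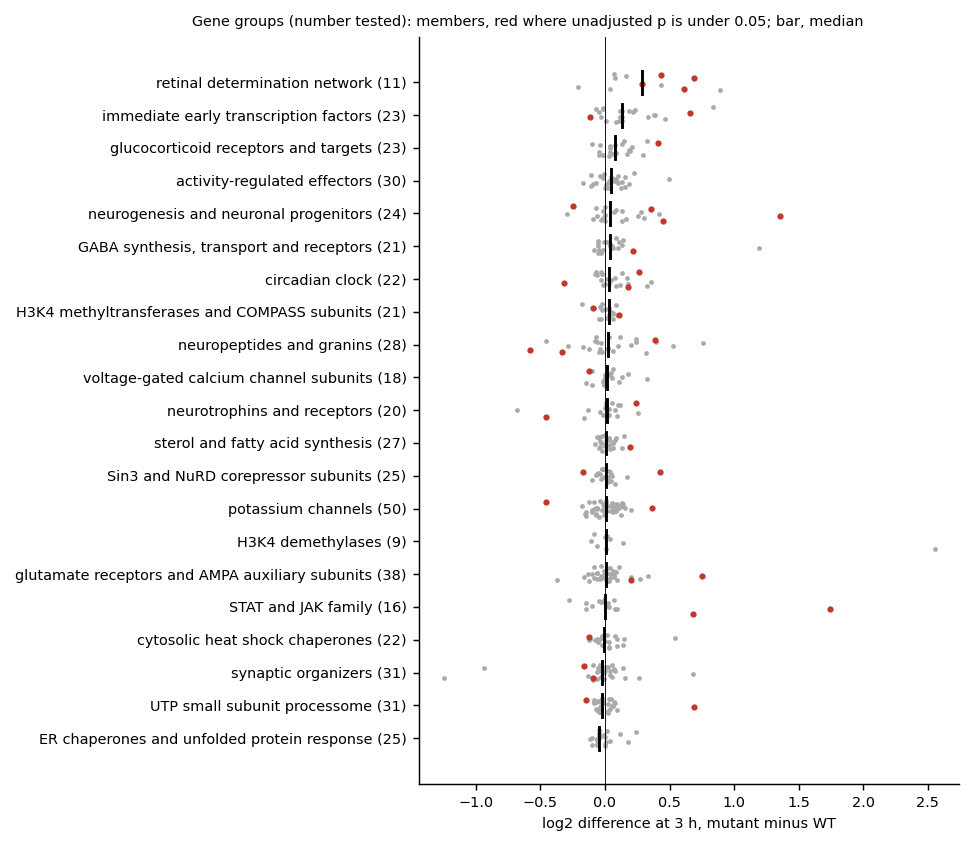
Log2 difference at 3 h (x axis) for each tested member of 21 gene groups (y axis, number tested in brackets), red where the unadjusted p is under 0.05, with the group's median as a bar. Medians lie close to 0 except for the retinal determination network at 0.28 and the immediate early factors at 0.13; the point at 2.55 among H3K4 demethylases is the Y-linked Kdm5d, which was at 0.09 without mutant female 2.

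Synaptic and signalling groups had medians near 0. Of 31 synaptic organizers, 2 had an unadjusted p under 0.05, close to the share over all genes (6.45% against 6.36%). Both were lower in mutants, while without mutant female 2 there were 3 higher and 2 lower (16.1%, against 8.06% of all genes). Nrxn2, a presynaptic neurexin, was at 345-403 CPM in WT libraries (median 364.5) and 311-341 CPM in mutant libraries (median 330.3), a log2 difference of -0.16 ± 0.04, and Nlgn2, the neuroligin of inhibitory synapses, was at -0.09 ± 0.04. C1ql2, a complement-like ligand of mossy fibre synapses, was at 35.6-70.5 CPM in WT libraries (median 41.6) and 28.3-111 CPM in mutant libraries (median 84.1), with mutant female 2 at the minimum, and had a log2 difference of 0.68 ± 0.32. Among 38 glutamate receptor genes, Cacng5, an AMPA receptor auxiliary subunit, was at 0.75 ± 0.25 and 0.49 without mutant female 2, where it reached 47.6 CPM. Gad2, a GABA-synthesizing enzyme, was at 0.22 ± 0.08 (0.13 without that library), Kcnh7, a potassium channel, at 0.37 ± 0.12, and the neuropeptide precursors Penk and Pnoc at -0.33 ± 0.13 and 0.39 ± 0.16, the latter 0.19 without it. In the glutamate receptor, GABA, potassium channel, neuropeptide, neurotrophin and clock groups that these examples and the next come from, 4% to 13.6% of members had an unadjusted p under 0.05, against 6.36% of all genes, and 0 were called. Without mutant female 2 the shares were 7.14% to 23.8%, against 8.06% of all genes, with the GABA group highest (5 of 21). Hgf, a growth factor, was at -0.46 ± 0.14. The clock genes Npas2 and Cry1 were at -0.32 ± 0.10 and 0.26 ± 0.09. Of 23 glucocorticoid genes, 17 had higher values (73.9%, against 50.2% of all genes; median 0.07) and only Hsd11b1 had an unadjusted p under 0.05 (4.35%, against 6.36%). The chaperone gene Hspa8 ranged widely, at 214-408 CPM in WT libraries (median 231) and 205-578 CPM in mutant libraries (median 406). Fgfr1, Cacna1i, C1ql3, Pde10a, Top1 and Arid1b had log2 differences of 0.08, -0.14, 0.04, -0.04, 0.04 and -0.06, none past the threshold.

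Markers of cell types and of neighbouring tissue set the context of these values. Summed choroid plexus markers, a tissue that can be carried over in dissection, spanned 47.0-8273 CPM in WT libraries and 58.5-3757 CPM in mutant libraries, and 0 of 12 had higher values in mutants, against 50.2% of all genes. Their median log2 difference was -0.57, or -1.76 without mutant female 2, with 0 at an unadjusted p under 0.05. It was -2.004 at 0 h and -2.14 at 1 h, where 7 of 12 were lower with an unadjusted p under 0.05. At 1 h 8.61% of all genes had such a p, in either direction. All 12 oligodendrocyte markers had higher values in mutants (median 0.24, and 0.09 without mutant female 2, which had the highest sum of the 12 libraries, 11571 CPM), with 0 at an unadjusted p under 0.05. Over all genes tested at 3 h, 50.2% had higher values and 6.36% had such a p, and the marker counts at 3 h are set against these shares. Summed thalamus markers reached 351 CPM in mutant female 2, against 140 to 189 CPM in WT and at most 214 CPM in the other mutants. Of the 12, 10 had higher values (median 0.17, and 0.09 without that library) and 2 an unadjusted p under 0.05, 1 without it. Of 8 CA2 markers, Cacng5, Ccdc3 and Pcp4 had an unadjusted p under 0.05 (37.5%, against 6.36% of all genes), and the median was 0.12, or 0.06 without mutant female 2, which had the highest summed level. Of 12 astrocyte markers, 9 had higher and 3 lower values in mutants (median 0.06), and Gfap and Gja1 had an unadjusted p under 0.05. The share with higher values was 75%, against 50.2% of all genes, and the share with such a p 16.7%, against 6.36%, or 8.33% against 8.06% without mutant female 2. Gfap was at 359-478.5 CPM in WT libraries (median 458.6) and 502.1-547 CPM in mutant libraries (median 513), with all mutants above all WT libraries, and Gja1 was at 0.15 ± 0.07. Of 12 dentate granule cell markers, 8 had higher and 4 lower values (median 0.06, and 0.14 without mutant female 2, which had the lowest sum), and only Tdo2, at 0.51 ± 0.16, had an unadjusted p under 0.05 (8.33%, near the 6.36% of all genes; 16.7% against 8.06% without mutant female 2). Of 13 interneuron markers, 12 had higher values (median 0.10), or 9 (median 0.06) without mutant female 2, which had the highest sum, and only Gad2 had an unadjusted p under 0.05. Markers of CA1, CA3 and neocortex leaned the other way. Higher values were found for 3 of 10, 3 of 10 and 3 of 12 (30%, 30% and 25%, against 50.2% of all genes). Their medians were -0.06 each, with 0 at an unadjusted p under 0.05. The pituitary hormone transcripts Prl and Gh, looked at after their values were seen, reached 215 and 128 CPM in WT female 2 and 69.4 and 19.2 CPM in WT female 1, and at most 2.48 and 4.05 CPM elsewhere. Pomc, of the same list, was not confined to WT. It was at 67.7 CPM in WT female 2 and 13.1 in WT female 1, but also at 28.8 in mutant female 3 and 11.9 in mutant male 3. The part of these tissues in the differences above was not tested.

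Genes near Kdm5b were listed because the mutant allele brings its neighbours with it. Of 223 genes tested within 25 Mb of Kdm5b, 29 had an unadjusted p under 0.05 (13%), 17 higher and 12 lower, against 6.36% of all genes, and 0 were called by edgeR. Tfcp2l1 was called by DESeq2 (adjusted p = 0.00995), and by edgeR without mutant female 2 (log2 difference 0.70, adjusted p = 0.0327). Over the whole of chromosome 1 the count was 100 of 999 (10%), the highest share of any chromosome. Tfcp2l1, Sctr, a secretin receptor, and Insig2, a regulator of sterol synthesis, had the smallest p within the window, at 0.59 ± 0.13, 0.76 ± 0.20 and -0.17 ± 0.05. Of the 30 genes above, 6 lie on chromosome 1 (Utp14b, Hsd11b1, Eya1, Pign, Fzd5 and Tfcp2l1). Only Tfcp2l1 among those is within 25 Mb of Kdm5b. In the paper, mutant males of 1 parental strain were crossed with females of the other, and their offspring were intercrossed. The mutant allele therefore came in on the chromosome 1 of a single strain. The 25 Mb window is a setting and was not derived from the extent of linkage in these mice. The part of linked strain differences in these values was not tested, inside the window or on the rest of chromosome 1.

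**Figure D5:**
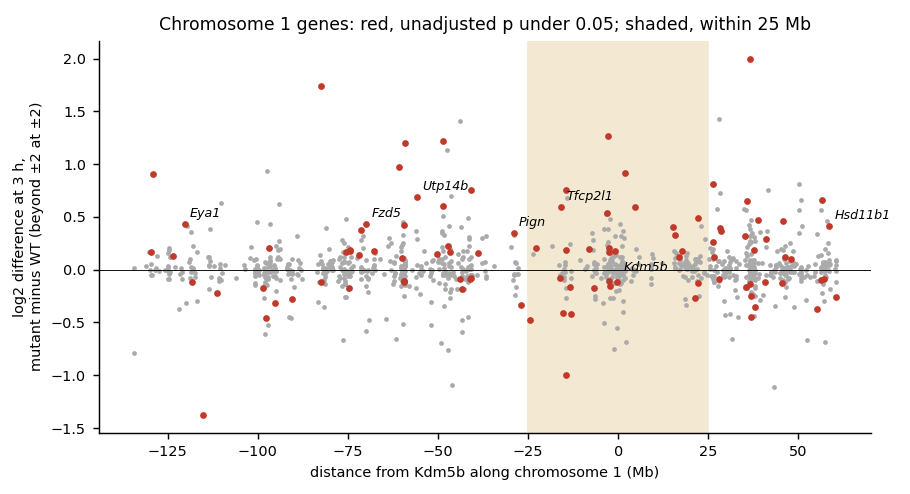
Log2 difference at 3 h (y axis) of the 999 genes tested on chromosome 1 against their distance from Kdm5b in Mb (x axis), red where the unadjusted p is under 0.05. Red points lie on both sides of 0 inside the shaded 25 Mb window and outside it, where Utp14b, Eya1 and Hsd11b1 stand.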

How the data were processed

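RNA was measured in the dorsal hippocampus of 36 mice by poly-A selected, paired-end sequencing. The authors aligned reads with STAR 2.7.8a to mm10 and deposited featureCounts 2.0.1 counts per gene, 1 table per library; the annotation and the strand and multimapping settings are not given in the sources used here. Gene IDs were named from RefSeq (25275) and GENCODE (18), and 1886 without a name, with 1.27% of counts, were kept in the tests. No 2 of the 3 h libraries held identical counts. Genes were kept by edgeR filterByExpr with a minimum count of 10, scaled by TMM and tested with glmQLFTest (edgeR 4.0.16, R 4.3.3), labelled sex as covariate, 12 libraries per time and 24 for genotype by time, with Benjamini-Hochberg adjustment over all genes. DESeq2 1.42.0 (the study also used DESeq2, in another version), limma 3.58.1 voom with sample weights, other scaling and filters, sex as the counts show it, a replicate block, all 36 libraries in 1 fit and leaving out each library were alternatives. Scripts were tested on simulated data. Named genes were the Kdm5 family, called genes, the 30 smallest p, the 3 smallest p of each of 21 gene groups, 10 immediate early genes, genes the study names and genes overlapping a called gene; 18 marker lists were summed. Members and lists were chosen with earlier results of these data known. Each library is 1 mouse. Totals count reads, not molecules, and depth differed between genotypes at 3 h.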

Additional observations from a re-analysis of the deposited data

Results flagged for a closer look

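In the 212 groups of 6 libraries examined (88 named genes and 18 marker sums in each genotype at 3 h), a value stood apart from the other 5 by Dixon's criterion at the 95% level 27 times. The criterion flags about 5% of groups where these are independent and chosen blind. Here some genes and sums were added after their values were seen, and some genes are also part of a sum. The 27 is therefore a description and is not set against that 5%. The library labelled mutant female 2 accounted for 11 of them. In it Fos was at 43.9 CPM, Egr2 at 19.9, Arc at 332.2, Cacng5 at 47.64, Gad2 at 274.1 and Pnoc at 17.32, each the highest of the mutants, while Pde10a at 79.34, Arid1b at 134.4 and Tbrg1 at 31.15 were the lowest. Its summed interneuron markers, at 1213 CPM, and summed thalamus markers, at 350.9 CPM, were also the highest. Whether it was exchanged with the library labelled WT male 1 at 1 h, which has the opposite sex mismatch, cannot be told from the labels. The part of tissue composition in these values was not tested.

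Among WT libraries, female 3 was highest for Npas4 (17.91 CPM), C1ql3 (175.2), Top1 (103.7), Tbrg1 (38.9) and the summed markers of dentate granule cells (1051), CA2 pyramidal cells (394.7) and microglia (468.5). WT female 2 was highest for Prl (214.7 CPM), Gh (128.4 CPM) and the summed pituitary transcripts (421.9 CPM), a list added after the data were seen, and mutant female 3 was highest among mutants for that sum (32.93 CPM). WT male 2 was lowest for Dach1 (5.641 CPM) and highest for Stat4 (0.6344 CPM). WT male 1 was highest for Sctr (0.8084 CPM), WT female 1 for Ggta1 (3.253 CPM) and WT male 3 for the summed markers of meninges and fibroblasts (946.0 CPM).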

How the results depend on the processing

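The 2 genes called at 3 h became 51 with DESeq2 with sex, 41 with DESeq2 without a covariate, 0 with the replicate block, 3 with all 36 libraries in 1 fit, 115 with DESeq2 without mutant female 2 and 1 with counts thinned to the smallest total (the last 2 chosen after seeing the data), and 0 to 18 when 1 library was left out, 18 without mutant female 2. The same-numbered libraries of the 2 genotypes correlated at -0.23 to 0.16 in their deviations, and differently numbered ones at -0.21 to 0.34. With so few libraries this does not show whether the numbers pair the mice. With the block the adjusted p of Utp14b was 0.106. The 0 genes called at 0 h became 16 with DESeq2 and 0 to 5 with 1 library left out (5 without mutant male 1), and the 0 at 1 h became 3 with no sex covariate, 5 with the replicate block, 100 with DESeq2 and 0 to 41 with 1 library left out (41 without WT male 1, whose sex label its counts also contradict). Genotype by time stayed at 0 in every alternative run, the 1 without mutant female 2 and WT male 1 at 1 h (chosen after seeing the data) included. Genotype by sex gave 6 with DESeq2 and 0 to 1 with 1 library left out. The difference in library totals ranged from -26183560 to -18982050. Signs turned for some of the named genes, Fos (0.38 with all libraries) among them. With voom weights Kdm5a was at -0.0067, Npas4 at -0.030, Nr4a1 at -0.047, Arc at -0.19 and Bdnf at 0.039; with the block Arc was at -0.10, and with sex as the counts show it Bdnf was at 0.040. Leaving out 1 library gave ranges of -0.026 to 0.023 for Kdm5a, -0.22 to 0.55 for Fos, -0.068 to 0.056 for Egr3, -0.091 to 0.34 for Npas4, -0.14 to 0.25 for Nr4a1, -0.35 to 0.20 for Arc, -0.033 to 0.060 for Bdnf, -0.0075 to 0.14 for C1ql3 and -0.088 to 0.043 for Pde10a. The cause was not tested. Of 273 alternative medians of gene groups, 272 moved by less than 1 SD between libraries, and the retinal determination network without mutant female 2 (0.12) moved by more.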
